A study of Mus musculus with 11 samples.

Results

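This section describes 294 gene windows, of 24541 in the deposited H3K4me3 table, whose read counts in all 4 H3K4me3 libraries were identical to those of at least 1 other gene and whose mean H3K4me3 level was 5 CPM (counts scaled to a common library total) or more. They formed 142 sets, 137 of 2 genes, 2 of 3, 2 of 4 and 1 of 6, and made up 2% of the 14699 windows at that level. The windows were chosen by their H3K4me3 counts, so their H3K4me3 levels and changes are given as description without a test, and the RNA of the genes in each set, which the choice did not use, was tested. Granulosa cells, which line the ovarian follicle, nourish the oocyte and respond to follicle stimulating hormone, came from ovaries of C57BL/6 mice that were untreated (0 h) or treated for 48 h with equine chorionic gonadotropin (eCG), which the labels also call FSH. H3K4me3 chromatin immunoprecipitation, with an Abcam antibody, gave 2 libraries at each time, and RNA sequencing gave 3 libraries at each time from mice labelled as postnatal day 21, with cells taken by puncturing follicles. There was 1 input DNA library, which was not used here, and no untreated group at 48 h, so treatment and the passage of 48 h cannot be told apart. The series calls its libraries biological replicates; where they came from separate animals is not given, so the p-values measure the spread between these libraries.

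H3K4me3, trimethylation of lysine 4 of histone H3, marks the nucleosomes around the start sites of active and poised genes. Many mammalian genes lie head to head, on opposite strands, and share a CpG-rich promoter region from which RNA polymerase leaves in both directions; others share a start on the same strand and differ in their exons, and others again are copies of each other at distant sites. Reads of chromatin near a start site carry no direction of transcription, whereas RNA is counted gene by gene. By the choice made here, the genes of a set, adjacent or apart, have the same H3K4me3 counts and have separate RNA values.

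Of the 142 sets, 114 with 228 genes were adjacent, their gene bodies overlapping or separated by at most 182 bp in the RefSeq gene table of GRCm38.p6. In 54 adjacent sets the genes lay on opposite strands, with start sites a median of 41 bp apart (range 1 to 217 bp). In 31 adjacent sets they lay on the same strand with overlapping bodies, and 21 of the 24 with both starts known had the same start base. Strand was not known for the other 29 adjacent sets. A further 23 sets, with 54 genes, held genes that were apart: 5 across different chromosomes and 18 on 1 chromosome. In the 18, the largest gap between consecutive genes of a set was at least 1960 bp where it could be measured. The last 5 sets, with 12 genes, held an identifier with no position. By type, 235 of the 294 were protein coding, 28 were long non-coding RNAs, 15 microRNAs, 6 ribosomal RNAs and 4 transcribed pseudogenes, and 6 were not in the gene table.

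The promoters below are from RefSeq on GRCm38.p6, 250 bases before to 50 after the start in the direction of the named gene. They are shown because each holds the starts of both genes of a set whose RNA results follow, and the capitals run from the start of 1 gene to the start of the other. They lie at chr8:11312555-11312854 (+) for Col4a2 with Col4a1, chr2:26389098-26389397 (+) for Pmpca with Entr1, chr14:31018888-31019187 (+) for Pbrm1 with Gnl3, chr8:124862783-124863082 (+) for Gnpat with 2810004N23Rik, and chr3:116007357-116007656 (-) for Slc30a7 with Extl2.
Col4a2: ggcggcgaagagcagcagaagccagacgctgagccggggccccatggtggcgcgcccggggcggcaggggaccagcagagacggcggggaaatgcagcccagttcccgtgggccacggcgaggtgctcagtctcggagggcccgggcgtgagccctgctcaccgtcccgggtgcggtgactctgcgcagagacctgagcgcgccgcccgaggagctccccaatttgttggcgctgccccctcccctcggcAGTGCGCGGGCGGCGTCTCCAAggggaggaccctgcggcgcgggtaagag
Pmpca: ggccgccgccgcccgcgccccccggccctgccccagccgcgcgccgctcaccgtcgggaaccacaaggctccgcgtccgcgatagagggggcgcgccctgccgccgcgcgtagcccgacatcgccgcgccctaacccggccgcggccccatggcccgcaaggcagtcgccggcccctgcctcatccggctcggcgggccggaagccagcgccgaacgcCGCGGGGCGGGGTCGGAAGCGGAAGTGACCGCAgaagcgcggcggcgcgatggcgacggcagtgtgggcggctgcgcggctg
Pbrm1: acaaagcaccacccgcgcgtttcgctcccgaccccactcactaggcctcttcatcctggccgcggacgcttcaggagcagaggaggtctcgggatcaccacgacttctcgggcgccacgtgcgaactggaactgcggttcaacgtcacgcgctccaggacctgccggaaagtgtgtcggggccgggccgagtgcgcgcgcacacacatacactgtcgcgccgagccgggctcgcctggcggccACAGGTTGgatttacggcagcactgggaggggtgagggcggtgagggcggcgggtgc
Gnpat: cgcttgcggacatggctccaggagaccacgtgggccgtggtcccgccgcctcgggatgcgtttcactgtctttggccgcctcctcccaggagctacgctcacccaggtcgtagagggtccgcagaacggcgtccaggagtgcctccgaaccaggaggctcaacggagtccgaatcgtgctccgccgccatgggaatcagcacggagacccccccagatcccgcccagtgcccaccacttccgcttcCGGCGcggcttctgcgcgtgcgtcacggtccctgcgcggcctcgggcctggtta
Slc30a7: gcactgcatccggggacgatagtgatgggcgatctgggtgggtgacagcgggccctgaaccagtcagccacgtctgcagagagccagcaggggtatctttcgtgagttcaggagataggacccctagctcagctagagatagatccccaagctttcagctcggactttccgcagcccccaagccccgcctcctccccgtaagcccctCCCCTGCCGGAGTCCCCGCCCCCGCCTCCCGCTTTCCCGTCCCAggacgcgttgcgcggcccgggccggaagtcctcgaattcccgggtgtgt
The starts are 21 bp apart for Col4a2, 32 bp for Pmpca, 7 bp for Pbrm1, 4 bp for Gnpat and 43 bp for Slc30a7, and none of the 5 promoters holds TATAAA on either strand. These starts are those of the promoter sequences and can lie inside the gene bodies. The gap between the bodies is 7 bp for Pmpca with Entr1 and 34 bp for Slc30a7 with Extl2. GGGCGG, the GC box, occurs 3 times in Col4a2, 3 times in Pmpca, 2 times in Pbrm1, 1 time in Gnpat and 1 time in Slc30a7. CCGGAA, the core bound by ETS factors, occurs 1 time in each of Pmpca, Pbrm1, Gnpat and Slc30a7, and Col4a2 holds CCAAT 1 time.

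Over the 179 promoters found for adjacent members, the median GC content was 65% and the median ratio of observed to expected CpG was 0.867, against 61.3% and 0.768 for 11366 genes with a window of 5 CPM or more and 52.7% and 0.389 for all 27025 promoters of the table. CCGGAA was present on either strand in 49.2% of the adjacent members' promoters, against 27.2% and 15.3% in those backgrounds. AANATGGC, the letters of a YY1 site, was present in 19.6%, against 8.12% and 6.22%. GGGCGG was present in 74.9%, 66.5% and 35.9% in the same order, CCAAT in 36.9%, 38.8% and 38.0%, and TATAAA in 5.03%, 6.78% and 14.1%. The promoters of a set overlap, and with 1 promoter for each of 101 adjacent sets CCGGAA was in 50.5% and AANATGGC in 19.8%. Matches of different motifs may overlap, and a match is a description of the letters, not of binding.

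Counted gene by gene, the promoters of genes that were apart had other values. Their 39 promoters, with those of the unplaced sets, had a median GC content of 49.3% and a CpG ratio of 0.469, and CCAAT was in 56.4% of them. Of 14 such sets with 2 or more promoter sequences, 12 held near-identical promoters (99.3% or more of the aligned bases, shifts of up to 50 bases allowed), 8 of them identical over all 300 bases. One of these sets, H2bc23 with H4bc24, 23543 bp apart on chromosome 13, has symbols of different histones, H2B and H4, and whether the table's sequence is right for both was not tested. Zfp966 and Zfp967, zinc finger genes on chromosome 2, are an example, at chr2:175931051-175931350 (-) and chr2:176520754-176521053 (+). The line below is the promoter of Zfp966, and that of Zfp967 has the same letters, so nothing is in capitals.
Zfp966: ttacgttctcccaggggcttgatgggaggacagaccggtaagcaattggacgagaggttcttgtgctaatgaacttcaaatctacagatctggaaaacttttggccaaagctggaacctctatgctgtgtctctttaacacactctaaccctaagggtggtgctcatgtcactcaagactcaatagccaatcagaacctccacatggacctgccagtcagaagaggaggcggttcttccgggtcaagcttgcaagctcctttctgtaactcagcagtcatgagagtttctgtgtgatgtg
The other 2 sets were Amd1 with Amd2, at 37.2%, and Rps27 with Rps27rt, at 30.8%. That is the range of unrelated promoters, since the promoters of different adjacent sets had a median identity of 33.8% and a highest of 40.9% over 100 pairs by the same measure. Thus these 2 sets had identical H3K4me3 counts, 1891, 1711, 2376 and 2270 at Amd1 and Amd2 and 1733, 1264, 1764 and 1838 at Rps27 and Rps27rt, beside unlike promoter letters.

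Copies were also found among the microRNAs, the short RNAs that pair with messenger RNAs through their seed, bases 2 to 8 (in capitals below). Mir692-2 on chromosome 4 and Mir692-3 on chromosome 13 encode the same mature sequence, as do Mir1906-1 on chromosome 12 and Mir1906-2 on chromosome X. Gm27775 and Gm27740, both on chromosome 17, have identical hairpins of 58 bases, shown with their 2 mature arms.
mmu-miR-692: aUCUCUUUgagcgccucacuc
mmu-miR-1906: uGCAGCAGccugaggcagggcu
mmu-miR-6967-5p: cAGGGAGGgauaaagaccagu
mmu-miR-6967-3p: uCAUCUUUaucucuccccag
Gm27775 hairpin: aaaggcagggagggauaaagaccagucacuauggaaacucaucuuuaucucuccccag
The seeds of these 4 mature sequences all differ. The window counts were 102, 90, 150 and 176 at both Mir692 genes, 198, 141, 312 and 343 at both Mir1906 genes, and 122, 84, 103 and 152 at Gm27775 and Gm27740, in the order 0 h replicates 1 and 2 and 48 h replicates 1 and 2.

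Identity of the counts went with the distance between start sites. Among 1189 pairs of neighbouring start sites within 2000 bp, with both windows at 5 CPM or more, all 20 pairs with the same start base had identical counts. The share was 42% (21 of 50) at 1 to 25 bp, 26.2% (17 of 65) at 26 to 50 bp, 5.88% (11 of 187) at 51 to 100 bp and 2.38% (6 of 252) at 101 to 200 bp. From 201 to 1000 bp it was 3 pairs in all, 2 of 317 and 1 of 155, and from 1001 to 2000 bp it was 0 of 143. The largest difference in any library, as a share of the count, had a median of 0.0518% at 1 to 25 bp and of 1.63% at 1001 to 2000 bp. These medians are over all pairs at that distance, with the identical pairs included. The counted window itself is not given in the sources used here, and pairs of genes are not replicates.

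**Figure D1:**
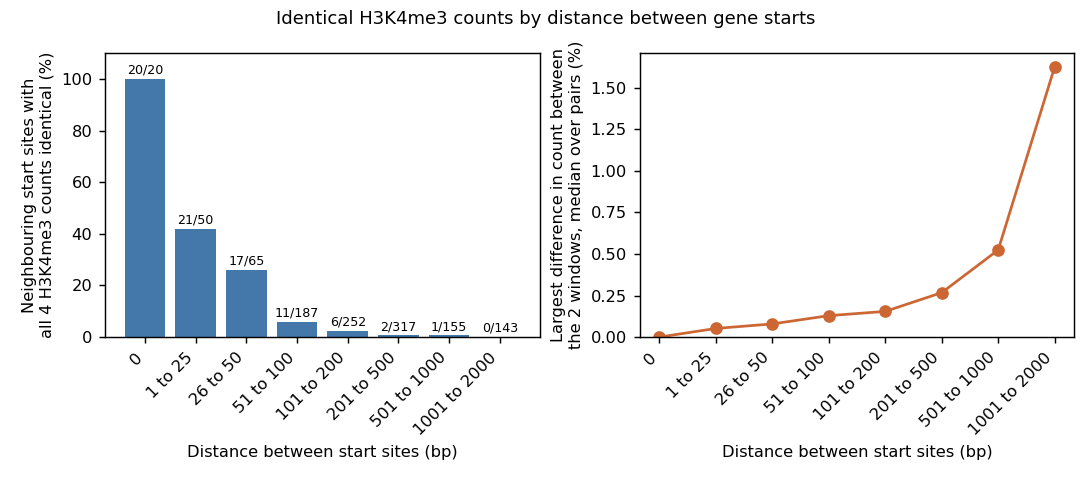
Left, the share of neighbouring start-site pairs whose 4 H3K4me3 counts were identical (bars, %, with identical over all pairs above each), by distance between the starts in bp; right, the median over pairs of the largest difference in count between the 2 windows in any library (points, %). The share falls from 20 of 20 at the same base to 0 of 143 at 1001 to 2000 bp, while the median difference rises to 1.63%.

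The H3K4me3 level of the 142 sets ran from 5.03 to 161 CPM with a median of 80.3, against 62.4 for all windows of 5 CPM or more. The highest were the ribonuclease genes Ang and Rnase4 (161 CPM), Zfp91 with Gm44505 (159), Tcta with Rhoa, the small GTPase of the actin cytoskeleton (154), Chtf8 with Utp4 (154) and Serp1 with Eif2a (151). Just above the threshold of 5 CPM were the vomeronasal receptor copies Vmn1r246 and Vmn1r256 (5.03), Scn1a with Gm13629 (6.28), Ccna1 with 4931419H13Rik (6.53), Gm27775 with Gm27740 (7.39) and 4930467E23Rik with Gm21119 (7.40). Just below it were Vmn1r101 with Vmn1r149 (4.88), Vmn1r245 with Vmn1r255 (4.56), Gm4070 with Gvin1 (4.51), Gm4565 with Gm4513 (4.39) and Gm10670 with Gm10665 (4.38), among 692 further identical windows in 305 sets under 5 CPM.

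From 0 h to 48 h the log2 change in H3K4me3 over the sets had a median of 0.04 (quartiles -0.03 and 0.12), beside 0.05 (-0.05 and 0.16) over all windows of 5 CPM or more; with library-size scaling alone the sets' median was -0.01. The largest rise was 0.80 at Pakap and the gene with identifier 242481, whose counts were 493 and 418 in the 0 h libraries and 946 and 1042 in the 48 h libraries, out of totals of 11989769 to 17968033 counts. RNA of 242481 rose too, as given below, while Pakap was at 0 in 4 of 6 RNA libraries and at 0.0494 and 0.174 CPM in the others. Rises of 0.63, 0.45 and 0.44 were found at the Mir1906 copies, at Clcf1 with Gm45928, and at the Mir692 copies. The largest falls were -0.44 at Slc10a3 with Gm44504, -0.34 at Vmn1r246 with Vmn1r256, -0.27 at Scn1a with Gm13629 and -0.26 at Gnl3 with Pbrm1. At Slc10a3, a member of a solute carrier family, the window counts were 375 and 281 in the 0 h libraries and 280 and 322 in the 48 h libraries, while its RNA rose from 25.97, 21.6 and 25.4 CPM to 32.6, 31.4 and 28.8 CPM (log2 change 0.35, SE 0.10, edgeR adjusted p = 0.0326). Library-size scaling ended that call, as did leaving out 0 h replicate 2, 0 h replicate 3 or 48 h replicate 2, at edgeR adjusted p of up to 0.164.

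Many of the genes had no RNA counts. All 6 RNA libraries had 0 counts for 84 of the 294 genes (28.6%), against 392 of 14397 other genes with a window of 5 CPM or more (2.72%). These 84 were unevenly spread over the layouts: 2 of 108 genes in opposite-strand sets, 22 of 62 in same-strand sets, 7 of 58 with unknown strand, 46 of 54 in sets of genes that were apart and 7 of 12 in unplaced sets. In 16 of the 23 sets of genes that were apart, every member was at 0. Among them were genes that nearly every cell uses. Oaz1, the antizyme that binds ornithine decarboxylase, shared 1913, 1627, 2235 and 2371 H3K4me3 counts with Oaz1-ps and was listed at 0 in every RNA library, as were Amd1, the S-adenosylmethionine decarboxylase of polyamine synthesis, and Amd2. Rps27, a ribosomal protein gene, was at 0.836, 0.889 and 0.580 CPM at 0 h and 0.920, 1.12 and 0.522 CPM at 48 h, and Rps27rt was listed at 0. The same held outside the duplicated genes for Htd2 with Rpp14, a subunit of ribonuclease P, and for Cers1, a ceramide synthase, with Gdf1, overlapping genes on the same strand: all 4 were listed at 0. The sets with the most genes were alike in this. Gm25018 and its 5 partners on chromosome 8, all ribosomal RNA genes in the gene table, shared 167, 128, 208 and 222 H3K4me3 counts. Gm4724, Gm14434 and Gm14308 on chromosome 2 with the gene of identifier 627914 shared 383, 280, 406 and 448, and Tmem254a, Tmem254b and Tmem254c on chromosome 14 shared 270, 184, 278 and 328. All of these were listed at 0 in RNA, whereas of the 4 genes of the set with Ccl27b, a chemokine gene, 3 were at 0 and 4933409K07Rik had a mean of 0.0428 CPM. Apoo, a subunit of the mitochondrial cristae-organising complex on chromosome X, shared its H3K4me3 counts with Apoo-ps on chromosome 13. Apoo was at 1.74, 0.840 and 0.950 CPM at 0 h and 1.76, 2.4 and 2.26 CPM at 48 h, without overlap but not called (log2 change 0.89, SE 0.34, edgeR adjusted p = 0.0795), and Apoo-ps was listed at 0. A listed 0 therefore gives no level here, and no fold change was computed for these genes.

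**Figure D2:**
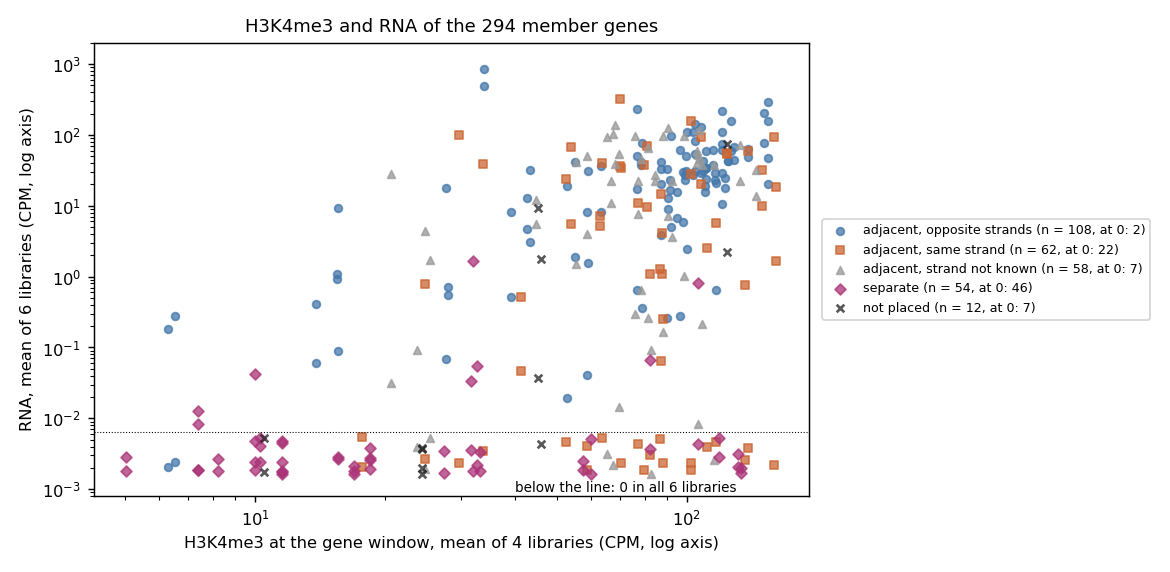
H3K4me3 at the window (mean of 4 libraries, CPM, log axis) against RNA (mean of 6 libraries, TMM-scaled CPM, log axis) for the 294 genes, by layout; genes under the dotted line had 0 counts in all 6 RNA libraries and are spread at random there to be visible. Separate genes, 46 of 54 at 0, lie mostly under the line, and opposite-strand genes, 2 of 108 at 0, mostly above it.

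In 31 sets, RNA was counted for 1 gene and nearly none for another of the set. There, 1 gene had a mean of 1 CPM or more and another had under 0.1 CPM. CPM is not corrected for gene length, so it gives each gene's share of the counts and does not rank genes by level. Of the 31, 28 were adjacent, 24 had overlapping bodies, 16 were on the same strand and 4 on opposite strands. In 9 the low partner was a microRNA: Mir8114 lies inside Glul, glutamine synthetase, at chr1:153899929-153909723, and was at 0 where Glul had a mean of 157 CPM, and Mir718 was at 0 where Irak1, the kinase of interleukin-1 and Toll-like receptor signalling, had 101 CPM. The 13 genes with microRNA symbols included 12 at 0, the exception being Mir320 with a mean of 0.00824 CPM. Among sets with a predicted gene, Gm44505 was at 0 beside Zfp91 at 92.2 CPM, and 33 of 46 predicted genes were at 0. Of 19 Rik genes 2 were at 0, and those with most counts were 2810004N23Rik (29.5 CPM), 0610012G03Rik (22.1) and 2310022A10Rik (17.5). The 4 opposite-strand sets with RNA on 1 side were Tmem251 (8.21 CPM) with Moap1 (0.0410), Dgke (19.0) with its antisense gene Dgkeos (0.0194), Pygl (17.7) with F730035M05Rik (0.0683), and Ptprt (9.22) with 9430021M05Rik (0.0902). Where bodies overlap, how the counting divided shared reads is not given in the sources used here, and without strand, reads of overlapping genes cannot be told apart.

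In RNA, 176 of the 294 genes could be tested between 0 h and 48 h; 84 were at 0 and 34 had too few counts. At an edgeR adjusted p under 0.05, 23 were higher at 48 h and 20 lower, which is 24.4% of those tested, against 31.8% of all 14401 genes tested (16.0% higher and 15.8% lower). With library-size scaling alone, which moved the median log2 change of all genes from -0.03 to -0.20, 13 were higher and 44 lower, and the share of higher calls went from 53.5% to 22.8% among the members and from 50.2% to 26.8% among all genes. The groups did not overlap in 76 of the 176 (43.2%; 47.9% of all genes). The median size of the log2 change, either way, was 0.217 over the members tested and 0.287 over all genes. By set, 21 had a gene called higher and none lower, 18 the reverse, 1 had both and 102 had no call. The 23 higher and 20 lower became 13 and 11 when 0 h replicate 2 was left out, 13 and 5 for 0 h replicate 3, 16 and 9 for 48 h replicate 2, and 18 and 7 for 48 h replicate 3. In bulk RNA, fewer cells of a type and less RNA per cell cannot be told apart.

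Among members called higher at a mean of 5 CPM or more with groups that do not overlap, the largest rises were those of Col4a1 and Col4a2, which encode the chains of type IV collagen, the network of basement membranes, and which share a head-to-head promoter. Col4a1 (chr8:11198423-11312889) was at 466, 519 and 514 CPM at 0 h and 2078, 707 and 794 CPM at 48 h. Col4a2 (chr8:11312805-11449287) was at 281, 336 and 312 CPM at 0 h and 1138, 394 and 442 CPM at 48 h. All 3 libraries at 48 h were above all 3 at 0 h for both genes, and 48 h replicate 1 was far above the other 2. The log2 changes were 1.26 (SE 0.36, edgeR adjusted p = 0.0297) and 1.09 (SE 0.36, edgeR adjusted p = 0.0474), and without 48 h replicate 1 they were 0.58 (edgeR adjusted p = 0.00213) and 0.43 (edgeR adjusted p = 0.0134). Without any 1 of the 0 h replicates neither gene was called, with edgeR adjusted p of 0.0725 to 0.0860 for Col4a1 and 0.0916 to 0.125 for Col4a2. DESeq2 called neither, at adjusted p of 0.0584 for Col4a1 and 0.105 for Col4a2. Col4a2 was also lost with RLE scaling, at an edgeR adjusted p of 0.0511, and with library-size scaling, at 0.0638. The same library was high in endothelial RNA: the summed CPM of 6 endothelial markers (Pecam1, Cdh5, Kdr, Tek, Egfl7 and Emcn) was 77.0 to 81.7 at 0 h and 468, 155 and 185 in 48 h replicates 1, 2 and 3, with all 6 called higher and none at 0. It also stood above the other 2 libraries of that time in the 5 smooth muscle and pericyte markers, which summed to 397 CPM against 167 and 206 (268 to 296 at 0 h, none called), and in the 9 oocyte markers, which summed to 96.1 CPM against 36.7 and 37.3. The same held for theca (8991 against 7884 and 7698), immune (197 against 119 and 164) and surface epithelium markers (211 against 156 and 142). It did not hold for red cell (534 against 163 and 677) or granulosa markers (44821 against 46576 and 45590). The part of any of these cells in the collagen change was not tested. The window of both genes had 512 and 392 H3K4me3 counts at 0 h and 569 and 644 at 48 h, a log2 change of 0.11.

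Other rises were those of Mapre2, which encodes a microtubule end-binding protein, 242481, Slc35f6 and Extl2, a glycosyltransferase of the exostosin family. Mapre2 was at 72.2, 66.6 and 70.9 CPM at 0 h and 96.8, 136 and 131 CPM at 48 h (log2 change 0.80, SE 0.13, edgeR adjusted p = 0.00249). The gene with identifier 242481 was at 5.46, 7.61 and 7.49 CPM and then at 11.3, 11.6 and 12.7 CPM (log2 change 0.79, SE 0.17, edgeR adjusted p = 0.00819). Slc35f6 was at 28.0, 29.2 and 35.5 CPM and then at 60.5, 41.8 and 48.9 CPM (log2 change 0.70, SE 0.15, edgeR adjusted p = 0.00864). In each of the 3 the lowest library at 48 h was above the highest at 0 h, and every alternative kept the call.

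Among members called lower at a mean of 5 CPM or more with groups that do not overlap, the largest falls were those of Ptprt, a receptor tyrosine phosphatase, Gnl3, Clk2, a kinase of splicing factors, Mtcp1, Dus4l, a tRNA dihydrouridine synthase, and Irak1. Ptprt was at 12.4, 12.7 and 10.9 CPM at 0 h and 5.21, 7.16 and 6.88 CPM at 48 h (log2 change -0.90, SE 0.17, edgeR adjusted p = 0.00450). Clk2 was at 17.9, 20.1 and 17.9 CPM and then at 11.6, 9.96 and 11.8 CPM (log2 change -0.75, SE 0.12, edgeR adjusted p = 0.00263). Irak1 was at 109.8, 120 and 119 CPM and then at 91.5, 82.4 and 82.0 CPM (log2 change -0.45, SE 0.08, edgeR adjusted p = 0.00460). For these genes, every library at 48 h was below every library at 0 h, and all alternatives kept the call. Mtcp1 (log2 change -0.67) and Dus4l (-0.64) had edgeR adjusted p of 0.0317 and 0.0196; both lost the call when replicate 2 or 3 of either time was left out, with adjusted p of up to 0.129 and 0.0791. Mtcp1 shares its start with Cmc4 (log2 change -0.44, edgeR adjusted p = 0.126).

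For 66 sets, both genes could be tested in RNA, and the difference between their log2 changes was tested by limma over a table of these pairs and all neighbouring genes. It was called at an adjusted p under 0.05 in 10 pairs (15.2%), against 29.9% of 14309 pairs of neighbouring genes. The median size of the difference was 0.244 for the 66 pairs and 0.426 for the neighbours. The log2 changes had the same sign in 37 of the 66 pairs. Members also changed less gene by gene (median size 0.217, against 0.287 over all genes), and the neighbours were not matched for RNA level or size of change. Whether partners change together more than neighbours do was therefore not tested. Both genes were called in the same direction in 2 pairs (3.03%; neighbours 6.65%), in opposite directions in 1 (1.52%; neighbours 3.98%), 1 gene only in 24 and neither in 39. In 9 of the 24 with 1 gene called, the difference itself was called, so the other 15 do not show that the genes differed. Of the 56 pairs with no called difference, 22 had a 95% interval within 0.5 log2 of 0, and 9 had an interval reaching beyond 1, so a difference of 1 is within the interval of those 9. The 10 called pairs were 7 of the 42 tested on opposite strands, 2 of 9 on the same strand and 1 of 14 of unknown strand. By gene bodies they were 5 of the 32 tested pairs that overlap and 5 of the 33 that do not. Without 1 library the number called was 4 to 13, and the 4 pairs described first below were called under all 12 alternatives. The exact two-sided permutation test of the ratio over the 6 libraries gave p = 0.1 for each of the 10, the smallest that 3 against 3 can give. That value is reached wherever the ratios of the 2 times do not overlap. They did not overlap in 28 of the 66 pairs (42.4%) and in 46.5% of the neighbours, so this p does not set the 10 apart.

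Pmpca and Entr1 were the set with both genes called in opposite directions. Pmpca, the alpha subunit of the mitochondrial processing peptidase (chr2:26389348-26397121), was at 132, 123 and 129 CPM at 0 h and 157, 150 and 149.9 CPM at 48 h. Entr1, a regulator of endosomal trafficking (chr2:26382798-26389340, on the other strand), was at 93.5, 83.9 and 90.1 CPM at 0 h and 75.4, 73.1 and 73.8 CPM at 48 h. Neither gene's groups overlapped, and they moved apart. The log2 changes were 0.25 (SE 0.08, edgeR adjusted p = 0.0372) and -0.27 (SE 0.08, edgeR adjusted p = 0.0267), and they differed by 0.52 (95% interval 0.30 to 0.73, limma adjusted p = 0.00481; 0.0251 at most over the alternatives). The separate calls were less stable than the difference: leaving out 0 h replicate 1, 2 or 3, or 48 h replicate 2 or 3, lost the call of at least 1 of the 2 genes, at edgeR adjusted p of up to 0.122 for Pmpca and 0.105 for Entr1, and Pmpca had an edgeR adjusted p of 0.436 with library-size scaling and of 0.0655 without a filter on low counts. Without 48 h replicate 1, 2 sets had opposite calls, this and Pbrm1 with Gnl3. The window had 1417 and 1260 H3K4me3 counts at 0 h and 1917 and 1927 at 48 h, a log2 change of 0.20.

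Gnl3, nucleostemin, a GTPase of the nucleolus, fell while Pbrm1, which encodes a bromodomain subunit of the PBAF chromatin remodelling complex, was not called. Gnl3 (chr14:31012433-31019131) was at 77.8, 69.0 and 84.5 CPM at 0 h and 48.8, 41.6 and 44.3 CPM at 48 h, with no overlap (log2 change -0.78, SE 0.10, edgeR adjusted p = 0.00114). Pbrm1 (chr14:31019138-31121592) was at 207, 212 and 201 CPM and then at 194, 250 and 240.1 CPM, with 48 h replicate 1 below all 3 libraries at 0 h (log2 change 0.14, SE 0.11, edgeR adjusted p = 0.346; 0.25 and 0.0323 without that library). The difference between the genes was 0.91 (95% interval 0.52 to 1.30, limma adjusted p = 0.00548). The window had 2001 and 1614 H3K4me3 counts at 0 h and 1860 and 1905 at 48 h, a log2 change of -0.26.

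AU040320 rose and Ncdn, neurochondrin, was not called. AU040320 (chr4:126753547-126869694) was at 137, 120 and 128 CPM at 0 h and 197, 180 and 181 CPM at 48 h (log2 change 0.53, SE 0.09, edgeR adjusted p = 0.00274). Ncdn (chr4:126743750-126753765) was at 61.3, 57.4 and 73.2 CPM and then at 51.0, 54.2 and 55.3 CPM, all 3 below the lowest at 0 h (log2 change -0.26, SE 0.10, edgeR adjusted p = 0.0905; called with library-size scaling, at 0.0122). The genes differed by 0.79 (95% interval 0.49 to 1.08, limma adjusted p = 0.00325). Their bodies overlap by a short stretch, with starts 210 bp apart.

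Armcx5 and Gprasp1 start at the same base on chromosome X (135742692, same strand). Gprasp1, a sorting protein of G protein-coupled receptors, was at 371, 306 and 311 CPM at 0 h and 274, 340.1 and 336 CPM at 48 h, with overlapping groups (log2 change -0.06, SE 0.12, edgeR adjusted p = 0.756). Armcx5, an armadillo repeat gene, was at 32.0, 30.0 and 28.4 CPM and then at 35.5, 47.8 and 45.5 CPM (log2 change 0.51, SE 0.12, edgeR adjusted p = 0.0134; 0.0563 without 0 h replicate 3 and 0.0600 with library-size scaling, each of which ended the call). Gprasp1 minus Armcx5 was -0.56 (95% interval -0.80 to -0.31, limma adjusted p = 0.00627). The library lowest for Gprasp1 at 48 h, replicate 1, was also the lowest of that time for Armcx5.

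**Figure D3:**
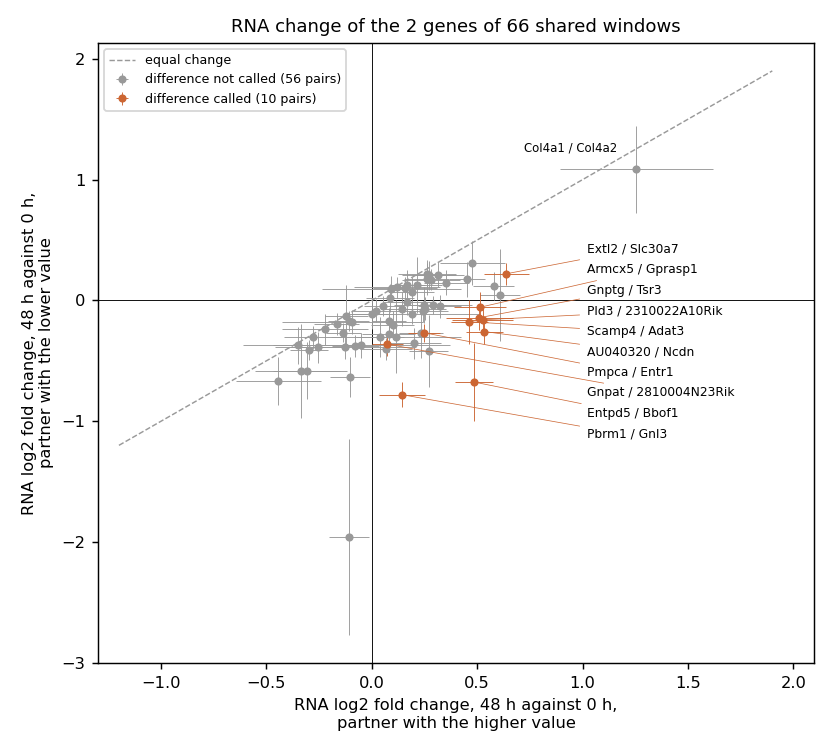
RNA log2 fold change at 48 h against 0 h of the 2 genes of each of the 66 testable sets, with edgeR standard errors. The gene with the higher value is on the x axis and the other on the y axis. The dashed line marks equal change. The 10 pairs whose difference was called by limma (orange, named higher gene first) lie off the line, and Col4a1 with Col4a2 lies near its upper end.

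The other 6 differences were called in 5 to 9 of the 12 alternatives. In Entpd5, a nucleotidase of the endoplasmic reticulum, with Bbof1, the difference was 1.07 (95% interval 0.39 to 1.74, limma adjusted p = 0.0267), the largest of the 10, on a Bbof1 level of 1.28 to 3.26 CPM. In Slc30a7, a zinc transporter of the Golgi, with Extl2, both genes had positive values, 0.22 (edgeR adjusted p = 0.103) and 0.64 (edgeR adjusted p = 0.00289), and differed by -0.42 (95% interval -0.69 to -0.14, limma adjusted p = 0.0313). Extl2 was at 38.4, 31.8 and 34.2 CPM at 0 h and 59.9, 52.3 and 50.3 CPM at 48 h. In Gnpat, an enzyme of plasmalogen synthesis, with 2810004N23Rik the starts are 4 bp apart, and the Rik gene fell from 34.7, 30.9 and 33.9 CPM to 23.2, 27.9 and 26.0 CPM while Gnpat was at 104 to 117 CPM throughout (difference 0.44, limma adjusted p = 0.0186); the fall itself was not called when replicate 1 or 3 of 0 h, or replicate 3 of 48 h, was left out, at edgeR adjusted p of up to 0.0973. The remaining 3 were Gnptg, a subunit of the enzyme that tags lysosomal proteins, with Tsr3, an rRNA-modifying enzyme (0.63, limma adjusted p = 0.0200), the lysosomal Pld3 with 2310022A10Rik (0.67, 0.0304), and Scamp4 with Adat3, a subunit of a tRNA deaminase (0.62, 0.0426). Leaving out 0 h replicate 3 ended all 6 calls, leaving out 0 h replicate 2 all but that of Gnpat, and leaving out replicate 2 or 3 of 48 h those of Entpd5, Slc30a7 and Scamp4 with their partners; 48 h replicate 2 also decided Gnptg, 48 h replicate 3 Gnpat, 0 h replicate 1 Pld3 and 48 h replicate 1 Scamp4. The highest limma adjusted p over the alternatives was 0.0639 to 0.139 across the 6 pairs.

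**Figure D4:**
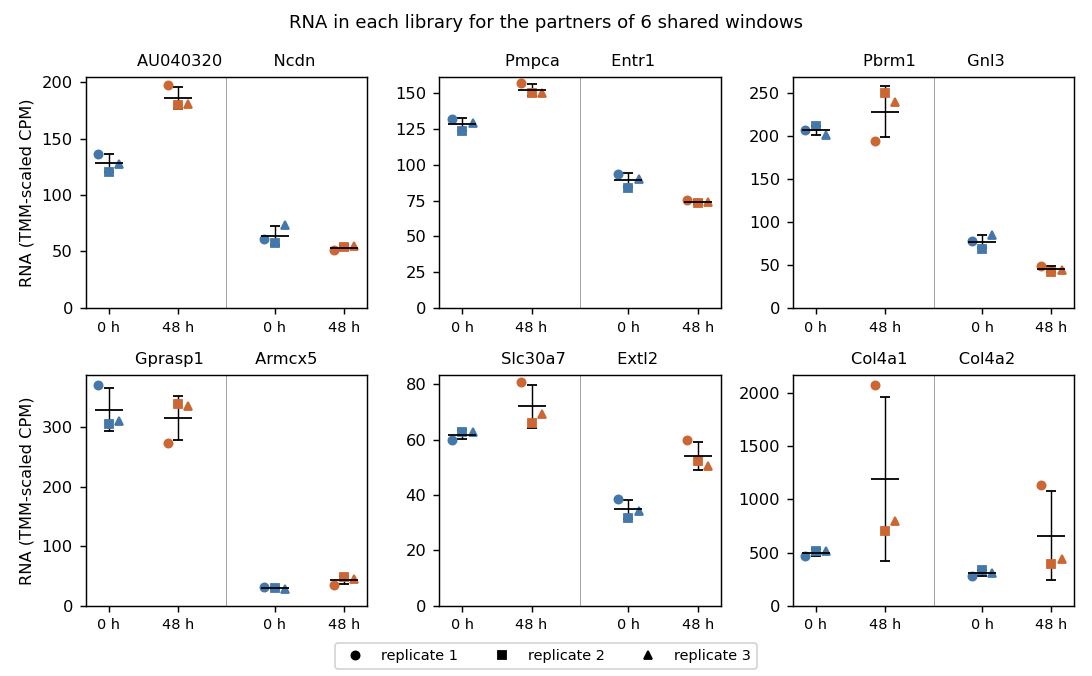
RNA in each library (TMM-scaled CPM, linear axes from 0) for the genes of 6 shared windows at 0 h (blue) and 48 h (orange); symbols mark the replicate, and bars the mean and SD of 3 libraries. Pmpca and Entr1 separate in opposite directions, and 48 h replicate 1 stands above the other 2 at Col4a1 and Col4a2, at 2078 and 1138 CPM.

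The pairs called in the same direction were Col4a1 with Col4a2, above, and Zfp276 with Vps9d1, both lower, named here because they make up that count. Zfp276 was at 65.5, 59.4 and 69.4 CPM at 0 h and 56.5, 51.0 and 50.7 CPM at 48 h (log2 change -0.30, SE 0.09, edgeR adjusted p = 0.0364). Vps9d1 was at 46.5, 44.4 and 45.6 CPM and then at 34.7, 32.3 and 35.7 CPM (log2 change -0.41, SE 0.08, edgeR adjusted p = 0.00646). All libraries at 48 h were below all at 0 h for both. Vps9d1 kept its call in every alternative, whereas Zfp276 lost it with DESeq2, with RLE scaling and with a replicate block. Zfp276 also lost it when replicate 1 or 3 of 0 h, or replicate 2 or 3 of 48 h, was left out, at edgeR adjusted p of up to 0.158. Among windows with the most H3K4me3, Utp4, a component of the small ribosomal subunit processome, fell from 56.4, 49.4 and 55.6 CPM to 38.6, 42.2 and 43.2 CPM (log2 change -0.38, SE 0.09, edgeR adjusted p = 0.0140; 0.0691 without 0 h replicate 3) and Chtf8 on the other strand was at 133 to 178 CPM with overlapping groups (log2 change -0.08, edgeR adjusted p = 0.621). The difference between the 2 genes was not called (0.30, 95% interval 0.06 to 0.54, limma adjusted p = 0.0651). Rhoa was at 288, 255 and 258 CPM and then at 281, 325 and 323 CPM, also overlapping (log2 change 0.21, edgeR adjusted p = 0.138; DESeq2 called it higher, and edgeR did without 48 h replicate 1, with a lowest adjusted p of 0.0290).

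No granulosa, theca, oocyte, endothelial, immune, red cell, smooth muscle or surface epithelium marker of the lists used was among the 294 genes. The 11 granulosa markers summed to 17981 to 23240 CPM at 0 h and 44821 to 46576 CPM at 48 h, with 8 called higher and 1 lower and none at 0. The 6 theca markers summed to 3195 to 4773 CPM at 0 h and 7698 to 8991 CPM at 48 h, with 2 called higher and 2 lower. The 9 oocyte markers summed to 89.6 to 102 CPM at 0 h and 36.7 to 96.1 CPM at 48 h, with 3 called lower. Of the immune markers, 154 to 223 CPM at 0 h and 119 to 197 CPM at 48 h, none was called, and of the surface epithelium markers, 132 to 204 and 142 to 211 CPM, 1 was called lower. Red cell markers summed to 67.8 to 128 CPM at 0 h and 163 to 677 CPM at 48 h. The 2 of them that could be tested were called higher, and the 4 globin genes of the list were at 0. The part of any of these cells in the results above was not tested. RNA library totals were 12013849 to 26343971 counts.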

How the data were processed

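H3K4me3 and RNA were measured in 4 and 6 libraries of mouse granulosa cells. Both tables hold raw counts per gene, deposited by the authors. Per the submitters' processing notes, the build was mm10, with Trimmomatic, Bowtie2 2.2.9, MACS2 2.2 and ChIPseeker 1.18.0 named for the chromatin libraries and FastQC 0.11.5, Picard, STAR, kallisto and sleuth for RNA; the counting tool, its strand setting and the window were not given in the sources used here. Column names place each H3K4me3 column in a group; its number serves only as a name. Gene positions, strands and sequences came from RefSeq tables of GRCm38.p6: 288 of the 294 identifiers were found in the gene table, 218 had a promoter sequence and 14 a mature microRNA sequence. Sets whose largest gap between consecutive genes was at most 1000 bp were taken as adjacent. H2-Q9, LOC100861978 and 4933409K07Rik were given no distance.

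RNA was tested with edgeR 4.0.16 (R 4.3.3; quasi-likelihood, TMM, filterByExpr, Benjamini-Hochberg over all genes). Differences between partners were tested with limma 3.58.1 (eBayes with trend on log2 CPM, prior count 2). RNA CPM values are TMM-scaled. The exact permutation test used log2 of CPM plus 0.1. H3K4me3 changes are edgeR log2 fold changes (TMM). Scripts for the tests were tested on simulated data. Alternatives were other scalings, no filter, DESeq2 1.42.0, a replicate block, other priors and thresholds, and leaving out each library.

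The replicates differed by more than counting noise (chi-square per degree of freedom 5.16 to 38.5 for RNA and 1.69 to 4.00 for H3K4me3), so none was counted as a repeat. Library totals were 12013849 to 26343971 counts for RNA and 11989769 to 17968033 for H3K4me3.

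The windows, gene lists and tests were chosen with earlier results of these data known. Genes were named by rule: partners called in opposite RNA directions, the 8 largest called differences between partners, the 6 largest called rises and 6 largest called falls at 5 CPM or more with groups that do not overlap, the 5 sets with most H3K4me3, the largest and the most distant sets, the 4 largest H3K4me3 rises and 4 falls, and the sets next to the threshold. The other 2 called pairs (Gnpat and Slc30a7 with their partners), Zfp276 with Vps9d1, Amd1, Htd2, Cers1, Zfp966, Glul with Mir8114, H2bc23 with H4bc24 and the opposite-strand sets with RNA on 1 side were chosen after their values were seen.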

Additional observations from a re-analysis of the deposited data

How the results depend on the processing

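Of 606 values recomputed under alternatives, 485 kept their direction and their side of the threshold, or moved by less than the limits set, and none of the called values turned its sign. For the 38 genes followed, 351 of 418 values kept the reported call, 61 lost and 6 gained it. For the 10 pairs with a called difference, 92 of 120 kept it. Without the trend in eBayes, the differences of Pld3 and Slc30a7 with their partners were not called. Without the filter on low counts, that of Scamp4 with Adat3 was not called. The cause of each change was not tested.

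The 23 genes called higher became 13 with library-size scaling and 13 to 30 without 1 library; the 20 called lower became 44 and 5 to 23. The single set with opposite calls became 0 without a filter on low counts and 0 to 2 without 1 library. The 10 called pairs became 4 to 13 without 1 library. The H3K4me3 median over the sets (0.04) became -0.011 with library-size scaling and -0.0044 to 0.068 without 1 library. Counts within 1% of another window of the chromosome, in place of identical ones, gave 2872 windows for 294. The 31 sets with RNA from 1 partner stayed within 1.5 times that count in all alternatives run.

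Whether same-numbered libraries were paired is not given in the sources used here, and the reported tests used no pairing. Same-numbered RNA libraries correlated at -0.21, -0.15 and -0.13 in their deviations from the group means, and the H3K4me3 libraries at 0.025. These values cannot decide the question, since deviations from a group mean cancel out within the group. With 2 libraries in a group, every H3K4me3 correlation has the same size. With the replicate block, 15 genes were higher and 8 lower, 0 sets had opposite calls and 6 pairs were called. Among the genes followed, the block ended the calls of Slc10a3, Col4a1, Col4a2, Mtcp1, Dus4l, 2810004N23Rik, Pmpca, Entr1 and Zfp276. It also ended the called differences of Gnpat, Entpd5, Slc30a7 and Scamp4 with their partners. Each group of 3 RNA libraries, and of 2 H3K4me3 libraries, limits what could be detected; leaving out an H3K4me3 library leaves a lone sample that is assumed to vary like the other group.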
